A study of Homo sapiens with 8 samples.

Results

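The miR-181 family was followed in INA-6 cells, an established multiple myeloma (MM) line grown with interleukin-6, on 8 single-colour arrays of mature miRNAs. The 6 members were taken by name among the 2549 human miRNAs of the array: hsa-miR-181a-5p, hsa-miR-181b-5p, hsa-miR-181c-5p, hsa-miR-181d-5p, hsa-miR-181a-3p and hsa-miR-181a-2-3p. Of the cultures, 4 had received the solvent DMSO and 4 had received 1 μM of UNC1999, a small-molecule inhibitor of the histone methyltransferase EZH2, and all were harvested after 120 h. For the controls, the protocol text of the labels speaks of UNC2400, the inactive relative of the inhibitor, where their titles have DMSO, and they were taken as DMSO cultures. The question was whether the family, by locus and by arm, differed between INA-6 cells with and without EZH2 inhibition.

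A miRNA is cut from a hairpin in its precursor RNA, and either arm of the hairpin, named 5p or 3p, can be loaded into the silencing complex. The loaded strand finds its target messenger RNAs mainly through its seed, bases 2 to 8 from the 5′ end. The miR-181 family is best known from blood cells, where miR-181a favours the B lymphoid lineage and tunes the sensitivity of T cell receptor signalling, and textbook accounts list miR-181a and miR-181b among the miRNAs raised in malignant plasma cells.

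Mature sequences were found in RefSeq (GRCh38.p14) for all 6 members and are shown with the seed in capitals, because the arrays have to tell apart strands that differ by few bases. The 4 members from the 5p arm share 1 seed.
miR-181a-5p: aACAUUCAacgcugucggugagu
miR-181b-5p: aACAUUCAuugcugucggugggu
miR-181c-5p: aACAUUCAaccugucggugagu
miR-181d-5p: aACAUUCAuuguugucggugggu

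Counted from the 5′ end, miR-181b-5p differs from miR-181a-5p by the substitutions A9U, C10U and A21G, all outside the seed. miR-181d-5p differs from miR-181b-5p by C12U alone, and miR-181c-5p is 1 edit away from miR-181a-5p, being 22 bases long where the others have 23. Outside the family, 1 human miRNA of the array, miR-4262, has the same seed.
miR-4262: gACAUUCAgacuaccug

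The members from the 3p arm have seeds of their own and differ from each other by U5C, C6U and U16C, of which the first 2 lie in the seed. They are shown because they are the strands that tell the miR-181a loci apart.
miR-181a-3p: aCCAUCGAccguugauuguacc
miR-181a-2-3p: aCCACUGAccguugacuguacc

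The family lies at 3 loci. MIR181A1 and MIR181B1 are neighbours on the minus strand of chromosome 1 inside the span of the host gene MIR181A1HG, MIR181A2 and MIR181B2 are neighbours on the plus strand of chromosome 9 inside the spans of MIR181A2HG and NR6A1, and MIR181C and MIR181D are neighbours on the plus strand of chromosome 19 inside the annotated span of NANOS3. The hairpins of miR-181a are at chr1:198859044-198859153 on the minus strand and at chr9:124692442-124692551 on the plus strand of GRCh38.p14, each 110 bases long. Their sequences are given with both mature arms in capitals, since the 5p arm is the same in both and only the 3p arm names the locus.
MIR181A1: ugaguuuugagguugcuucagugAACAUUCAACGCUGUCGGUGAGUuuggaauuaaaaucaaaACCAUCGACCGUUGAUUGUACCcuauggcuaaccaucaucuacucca
MIR181A2: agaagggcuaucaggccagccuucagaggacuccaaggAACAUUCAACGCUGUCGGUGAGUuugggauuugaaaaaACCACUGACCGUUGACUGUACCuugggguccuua

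A signal of miR-181a-5p therefore sums the products of the chromosome 1 and chromosome 9 loci, and the same holds for miR-181b-5p, whereas miR-181c-5p and miR-181d-5p come from chromosome 19 alone.

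The arrays measured each miRNA with 20 spots. The authors deposited a background-subtracted intensity for every spot and a detection call for every miRNA. Spots were averaged by probe and probes summed by miRNA, and every array was brought to a common 75th percentile, taken over 346 miRNAs with a detection call on each of the 8 arrays. A scaled signal is in these intensity units and has a meaning only beside other miRNAs measured on that array. As probes differ in brightness, no amount of one miRNA is read against that of another. The lowest signal with a detection call on an array serves only as a mark of the intensity range.

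Before the family, the arrays themselves were compared. Over the 346 miRNAs, the SD of the log2 difference between arrays was 0.12 for DMSO replicates 1 and 4, 0.18 for DMSO replicates 2 and 3, 0.14 for UNC1999 replicates 1 and 3, and 0.17 for UNC1999 replicates 2 and 4, against 0.30 to 0.36 for the other pairs inside a group. The second principal component of the tested miRNAs outside the family, with 15.0% of the variance, had DMSO replicates 1 and 4 and UNC1999 replicates 1 and 3 on one side and the other 4 arrays on the opposite side. The arrays were thus alike in pairs, 2 arrays of each group on each side, and their values did not settle whether alike arrays held RNA of separate cultures. Each was counted as a sample because the labels number 4 biological replicates, and results are also given with the side as a block.

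Of the 6 members, 2 were detected on all 8 arrays, miR-181a-5p and miR-181b-5p. miR-181a-3p was detected on 4 arrays, 2 of each group, and miR-181c-5p, miR-181d-5p and miR-181a-2-3p were detected on 0 of 8. The products with a call were thus those that the loci on chromosomes 1 and 9 share, and the 3p arm of the chromosome 1 locus. For the chromosome 19 locus, no strand had a detection call.

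The undetected members lay at the bottom of the intensity range. The scaled signal of miR-181c-5p ran from -3.08 to 3.37 over the 8 arrays, and that of miR-181a-2-3p from -6.02 to -0.80. The probes of miR-181d-5p gave 2.80 to 9.97, with the highest values, 9.97 and 9.44, on UNC1999 replicates 2 and 4. On UNC1999 replicate 2 this was 1.30 times the lowest signal of any miRNA with a detection call on the array, but 1 of 160 spots of miR-181d-5p was well above background over the 8 arrays. The probes of miR-181c-5p and miR-181d-5p thus gave no detected signal on arrays where strands 1 edit away, miR-181a-5p and miR-181b-5p, were detected. A miRNA without a detection call was not measurable at this signal over background, which does not show that it was absent. The 4 other strands of the family on the array, miR-181b-3p, miR-181b-2-3p, miR-181c-3p and miR-181d-3p, and miR-4262 with the shared seed, were likewise detected on 0 of 8 arrays.

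**Figure D1:**
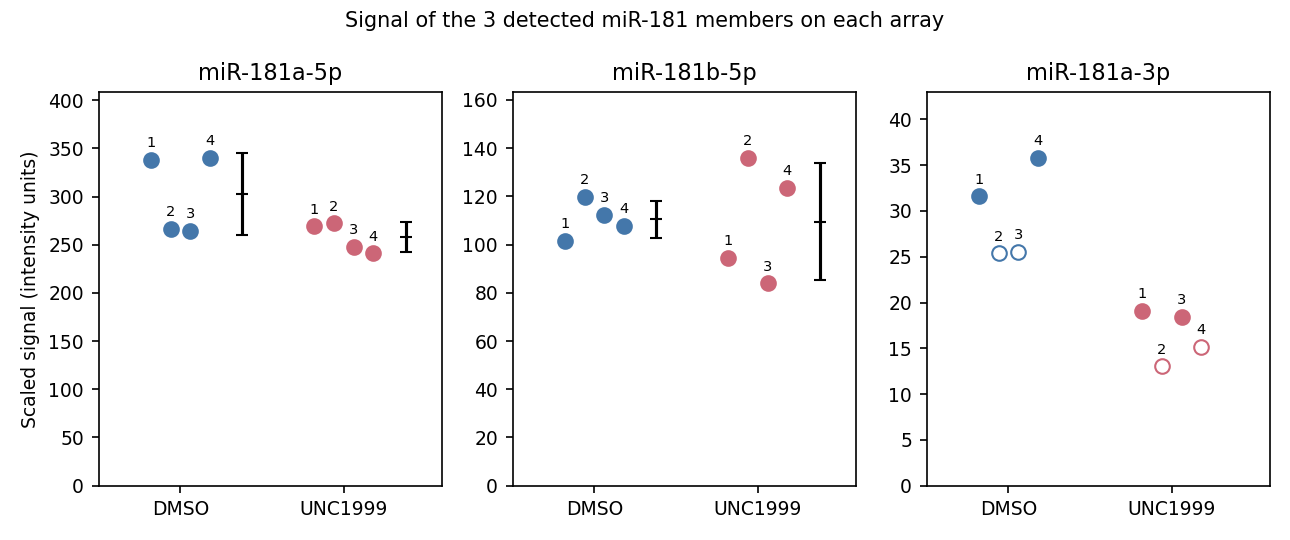
Scaled signal (intensity units, linear axis from 0) of miR-181a-5p, miR-181b-5p and miR-181a-3p on each of the 8 arrays, numbered by replicate, with filled points where the miRNA had a detection call and open points where it had none. Bars give the mean ± SD of 4 arrays for miR-181a-5p and miR-181b-5p only. DMSO replicates 1 and 4 stand above the other arrays for miR-181a-5p, at 338 and 340, and miR-181a-3p has a call on 4 arrays, 2 of each group.

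miR-181a-5p had a scaled signal of 338, 267, 264 and 340 in DMSO replicates 1 to 4, while UNC1999 replicates 1 to 4 had 269, 272, 248 and 241. DMSO replicates 1 and 4 stood above all UNC1999 arrays, while DMSO replicates 2 and 3 lay among them, so that the groups overlapped. On the log2 scale the mean was 8.23 ± 0.20 (SD, n = 4) in DMSO cultures and 8.01 ± 0.087 (SD, n = 4) in UNC1999 cultures. The log2 fold change was -0.22 (standard error 0.12, 95% interval -0.48 to 0.039, limma adjusted p = 0.11), and the two-sided exact permutation test of the 8 arrays gave p = 0.17. miR-181a-5p was not called, a call being an adjusted p of at most 0.05 with a fold change of at least 1.2.

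miR-181b-5p had a scaled signal of 102, 119.8, 112 and 108 in DMSO replicates 1 to 4, while UNC1999 replicates 1 to 4 had 94.5, 136, 84.0 and 124. The UNC1999 arrays lay on both sides of the DMSO arrays, replicates 2 and 4 above all of them and replicates 1 and 3 below all of them. The log2 mean was 6.78 ± 0.099 (SD, n = 4) in DMSO cultures and 6.75 ± 0.33 (SD, n = 4) in UNC1999 cultures. The log2 fold change was -0.036 (standard error 0.15, 95% interval -0.38 to 0.30, limma adjusted p = 0.83), with an exact permutation p of 0.86, and miR-181b-5p was not called either.

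Thus 0 of the 2 members tested were called, in a comparison in which 70.6% of the 456 miRNAs tested were called, 164 higher and 158 lower after UNC1999. With the test limited to miRNAs detected on all 8 arrays, the calls were 109 higher and 139 lower. Neither member had groups without overlap, where 65.4% of the miRNAs tested did. Of all miRNAs tested, 19.3% had a smaller log2 fold change in size than miR-181a-5p, and 1.75% a smaller one than miR-181b-5p. The intervals, which hold for this scaling, still allow a fall of 0.48 or a rise of 0.039 for miR-181a-5p on the log2 scale. For miR-181b-5p they allow a fall of 0.38 or a rise of 0.30, so a change of moderate size was not excluded by these arrays.

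Each tested member was read by 2 probes of 10 spots each, and the probes of a member gave like mean differences. The mean difference between UNC1999 and DMSO arrays was -0.25 and -0.21 on the log2 scale for the probes of miR-181a-5p, and -0.048 and -0.029 for those of miR-181b-5p. On the first probe of miR-181a-5p the groups did not overlap, narrowly, with a lowest DMSO value of 70.5 and a highest UNC1999 value of 70.3, and on its second probe they overlapped. The spots of a probe scattered on an array with a median coefficient of variation of 9.83% and 4.90% for the probes of miR-181a-5p, and of 11.3% and 7.12% for those of miR-181b-5p. The spread of miR-181b-5p between UNC1999 arrays, a log2 SD of 0.32 and 0.33 on its probes, was thus seen with either probe.

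The direction of these differences rested on the scaling between arrays. Before scaling, the summed intensity of miR-181a-5p was 252 ± 103 (SD, n = 4) in DMSO cultures and 332 ± 56.1 (SD, n = 4) in UNC1999 cultures, and that of miR-181b-5p was 88.6 ± 22.0 (SD, n = 4) and 139 ± 31.5 (SD, n = 4). DMSO replicates 2 and 3 were dim arrays, with 369 and 370 detected miRNAs against 474 to 500 on the others. On them miR-181a-5p was at 180 and 151. On DMSO replicates 1 and 4 it was at 310 and 367, among the UNC1999 arrays at 249 to 372, so its rise without scaling rested on the dim arrays. For miR-181b-5p all DMSO arrays were below all UNC1999 arrays, narrowly, at 116 against 118. The share of all miRNAs tested for which this held before scaling is not given here. Without scaling, the median of all miRNAs tested was higher by 0.67 on the log2 scale after UNC1999, miR-181a-5p by 0.48 (limma adjusted p = 0.18) and miR-181b-5p by 0.66, the last a call (limma adjusted p = 0.041). With the labelling spike-in RNAs as the scale, the median moved by 0.78, and both members were called higher, at 0.60 (limma adjusted p = 0.032) and 0.78 (limma adjusted p = 0.0027). Among all 456 miRNAs tested, 234 were called higher without scaling and 298 with the spike-ins, so nothing particular to the family is read from these calls. Relative to the median of all miRNAs tested, miR-181a-5p was at -0.19 and miR-181b-5p at 0.00016 with the spike-ins, against -0.23 and -0.047 with the percentile. With quantile normalization the values relative to the median, which moved by 0.11, were -0.37 and -0.11, and with the percentile over all human miRNAs, where the median moved by 0.23, they were the same as in the scaling by detected miRNAs, so that the fold changes themselves were -0.00090 and 0.18. Under normexp background correction the median moved by -0.29 and both members lay above it, by 0.11 and 0.087. When sums made by the scanner software were used instead, miR-181a-5p was called lower, at -0.31 (limma adjusted p = 0.020, over all settings between 0.0072 and 0.997).

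**Figure D2:**
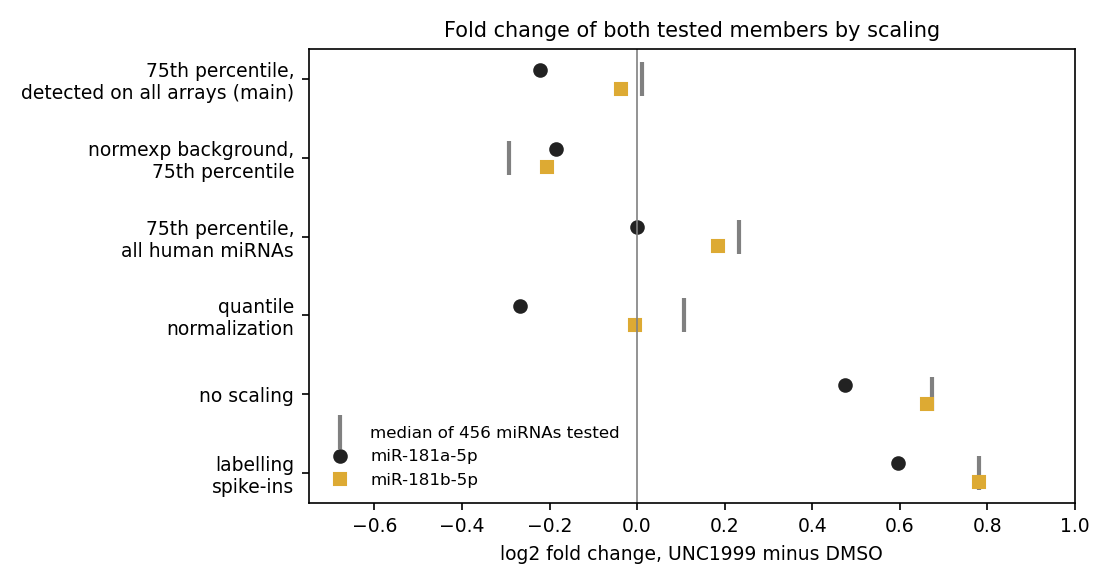
Log2 fold change (UNC1999 minus DMSO, horizontal axis) of miR-181a-5p (circles) and miR-181b-5p (squares) under 6 ways of scaling or background correction, beside the median of the 456 miRNAs tested (grey bars). Both members lie below 0 with the scaling by detected miRNAs and at 0.60 and 0.78 with the labelling spike-ins, where the median is 0.78, while with quantile normalization miR-181a-5p is lower, at -0.27, and the median higher, at 0.11, than with the scaling by detected miRNAs.

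The ratio of both members on the same array is free of the scaling. Signal of miR-181a-5p over signal of miR-181b-5p was 3.32, 2.23, 2.35 and 3.16 in DMSO replicates 1 to 4, whereas UNC1999 replicates 1 to 4 gave 2.85, 2.00, 2.95 and 1.95. As probes differ in brightness, the size of this ratio is not one of molecules, and only its differences between arrays are read. The log2 ratio was 1.45 ± 0.29 (SD, n = 4) in DMSO cultures and 1.26 ± 0.32 (SD, n = 4) in UNC1999 cultures, a difference of -0.19 (95% interval from the permutations -0.77 to 0.41, exact permutation test, two-sided, p = 0.43). It changed sign with normexp, at 0.020.

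The spread inside the groups had a pattern. The ratio was 2.85 to 3.32 on DMSO replicates 1 and 4 and UNC1999 replicates 1 and 3, and 1.95 to 2.35 on the other 4 arrays, with no overlap. These are the sides of the second principal component, which was computed without the family, and the first 4 are also the arrays with a detection call for miR-181a-3p. On the side with the higher ratio miR-181b-5p was at 6.39 to 6.75 on the log2 scale, and on the other side at 6.81 to 7.09. For miR-181a-5p the sides overlapped, at 7.95 to 8.41 and 7.91 to 8.09. The side of higher ratio minus the other side was 0.18 for miR-181a-5p and -0.34 for miR-181b-5p. Most of the 456 miRNAs tested lay between -0.29 and 0.38, and miR-181b-5p was just outside this range. What the sides stand for was not tested, and no label used here names such a grouping. Within the side of higher ratio the difference of miR-181a-5p between UNC1999 and DMSO was -0.39 and that of miR-181b-5p -0.23, and within the other side -0.051 and 0.16, each from 2 against 2 arrays, and whether these differ between the sides was not tested. The log2 ratio was 1.73 and 1.66 on the DMSO arrays and 1.51 and 1.56 on the UNC1999 arrays of the first side, and 1.16 and 1.24 against 1.00 and 0.96 on the other, so that within either side the groups did not overlap and the UNC1999 arrays were lower, by means of -0.16 and -0.21. Permuting the groups within the sides only, an alternative chosen after seeing the data, gave an exact two-sided p of 0.056, the smallest that its 36 arrangements allow. With the side as a block, miR-181a-5p had a limma adjusted p of 0.055 and miR-181b-5p one of 0.75. All these p-values count the alike arrays of a side as separate cultures, which was not settled. They have no reading if alike arrays held RNA of the same culture.

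**Figure D3:**
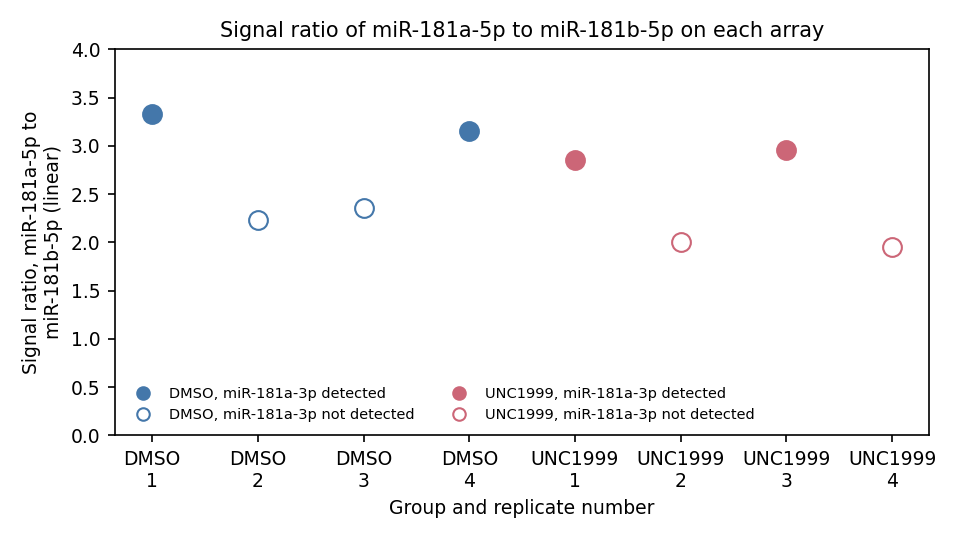
Signal of miR-181a-5p divided by signal of miR-181b-5p on the same array (linear axis from 0), for the 4 DMSO and 4 UNC1999 arrays, with filled points where miR-181a-3p had a detection call. Filled points lie between 2.85 and 3.32 and open points between 1.95 and 2.35, with 2 arrays of each group in each range.

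The 3p arm of the chromosome 1 locus, miR-181a-3p, was dim throughout. Scaled, it gave 31.6, 25.4, 25.5 and 35.8 in DMSO replicates 1 to 4, whereas UNC1999 replicates 1 to 4 gave 19.1, 13.1, 18.5 and 15.2. All DMSO arrays were thus above all UNC1999 arrays after scaling, but 20 of its 160 spots were well above background over the 8 arrays. Of the 456 miRNAs tested, 65.4% had groups without overlap as well, so nothing particular to this arm is read from it. Before scaling, the summed intensity of miR-181a-3p was 14.6 to 38.6 after DMSO and 15.7 to 26.0 after UNC1999, and the groups overlapped. As it lacked a detection call on 2 arrays of each group, it was not tested. On the 4 arrays with a call for both arms, the log2 ratio of miR-181a-5p to miR-181a-3p was 3.42 and 3.25 on DMSO replicates 1 and 4, and 3.82 and 3.75 on UNC1999 replicates 1 and 3. These values rest on few bright spots of the 3p arm, with 4, 9, 1 and 5 of 20 spots of miR-181a-3p well above background on the 4 arrays in this order, and no difference is read from them. Because miR-181a-5p also comes from the chromosome 9 locus, whose own 3p arm, miR-181a-2-3p, was not detected, this is not the ratio of the arms of 1 hairpin.

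For comparison, both arms were detected on all 8 arrays for 17 other miRNAs named by arm. The change in their log2 ratio of 5p to 3p arm after UNC1999 was largest in size for miR-4433a, at -1.14, and smallest for miR-1249, at -0.020. These changes are given as a description, without a test.

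Next, the family was set beside 11 other miRNAs that accounts of myeloma name as raised in malignant plasma cells. Of the 10 tested, 9 were called lower after UNC1999 and 0 higher, with a median log2 fold change of -0.79, against 158 lower calls and a median of 0.011 among all 456 tested. They include 6 miRNAs of the cluster that begins with miR-17, a polycistron that promotes proliferation and is induced by MYC. In this cluster miR-19b-3p fell by 0.98 on the log2 scale (limma adjusted p = 4.1e-04), miR-17-5p fell by 0.92 and miR-92a-3p fell by 0.70. The related miR-106b-5p, miR-93-5p and miR-25-3p, which share a cluster in the MCM7 gene, fell by 0.43, 0.55 and 0.48. Their direction turned, with no call, to 0.27, 0.15 and 0.21 without scaling and 0.39, 0.27 and 0.33 with the spike-ins. Of the 10 tested, 6 were still below 0 without scaling and 5 with the spike-ins. miR-21-5p, an interleukin-6 responsive miRNA of myeloma cells, was not called, at -0.010 (standard error 0.13, limma adjusted p = 0.94), and miR-32-5p was detected on 2 arrays of each group and not tested. The lower calls depended on the scaling as well, with 6 of 10 under the percentile over all human miRNAs, 8 under normexp, and 0 without scaling or with the spike-ins, where the list's median was -0.093 and 0.026 and, with the spike-ins, miR-21-5p was called higher at 0.81. Among all 456 tested, lower calls were 88 under the percentile over all human miRNAs, 230 under normexp, 4 without scaling and 7 with the spike-ins, where 298 were called higher.

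Relative to the mean log2 signal of these 10 miRNAs on the same array, which is free of the scaling, miR-181a-5p was on average 0.47 ± 0.090 (SD, n = 4) higher on the UNC1999 arrays than the mean of the DMSO arrays, with DMSO arrays between -0.16 and 0.13 and UNC1999 arrays between 0.38 and 0.59. The corresponding value of miR-181b-5p was 0.65 ± 0.38 (SD, n = 4), with DMSO arrays between -0.16 and 0.13 and UNC1999 arrays between 0.31 and 1.03. The groups did not overlap for either member, but the same held, with the UNC1999 arrays higher, for 66.8% of the 446 tested miRNAs outside the list, whose median difference on this scale was 0.73. The separation was thus that of most miRNAs from a list that was lower, and nothing particular to the family is read from it. The comparison has no test, because the list was chosen with earlier results known.

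The lymphoid list holds 6 miRNAs known, like miR-181a, from blood lineage choice and lymphocyte activation. Of its 4 tested members, 3 were called lower and 1 higher, beside 70.6% called among all miRNAs tested. miR-150-5p, abundant in mature lymphocytes, fell by 0.56 on the log2 scale (limma adjusted p = 0.0010), and miR-142-3p and miR-142-5p, arms of a hairpin used throughout the blood lineages, fell by 0.52 and 0.36. miR-223-3p, best known from myeloid cells, rose by 1.18 (limma adjusted p = 5.7e-04), but it was not called under normexp, at 0.037. The falls of miR-150-5p and both arms of miR-142 were not calls with the percentile over all human miRNAs, and that of miR-142-3p also not under normexp or in the authors' processed values. Without scaling and with the spike-ins their direction turned, to 0.13 and 0.25 for miR-150-5p, 0.18 and 0.30 for miR-142-3p, and 0.33 and 0.45 for miR-142-5p, with no call. miR-155-5p was detected on 2 UNC1999 arrays and 0 DMSO arrays, miR-146a-5p on 0 of 8, and neither was tested.

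As markers of the cell type, miR-142-3p and miR-142-5p were detected on all 8 arrays. Of 12 miRNAs that mark epithelium, smooth muscle and fibroblasts, endothelium, liver, muscle and red cells, among them miR-200c-3p, miR-145-5p, miR-126-3p and miR-451a, 0 were detected on any array.

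**Figure D4:**
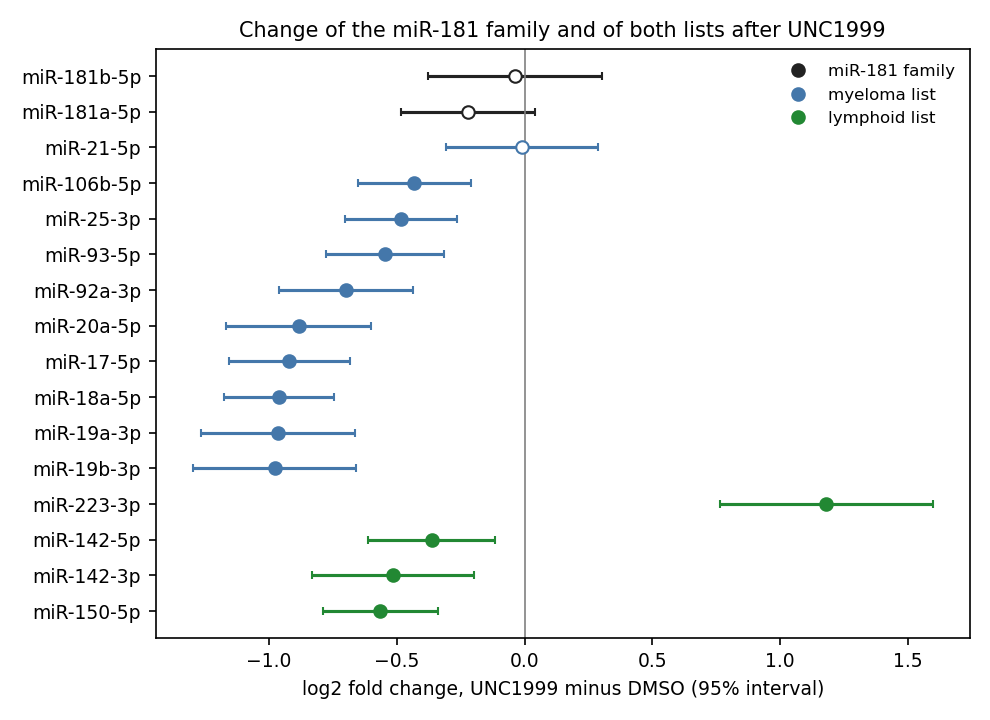
Log2 fold change (UNC1999 minus DMSO) with its 95% interval from limma for the tested members of the miR-181 family, the myeloma list and the lymphoid list, with filled points for called miRNAs. Both miR-181 intervals include 0, while 9 of the 10 tested miRNAs of the myeloma list were called lower with the scaling by detected miRNAs, and 0 of them without scaling or with the spike-ins. In the last 2 settings 4 and 7 of all 456 miRNAs tested were called lower.

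Finally, the profiles over the 8 arrays were compared by the root mean square difference of log2 values after centring each miRNA on its own mean. For miR-181a-5p the closest of 454 miRNAs outside the family were miR-23b-3p, at 0.057, followed by miR-9-3p, miR-425-5p, miR-26b-5p and miR-30b-5p, all at 0.070 to 0.076, where the median over all 454 was 0.36. Of these, miR-23b-3p and miR-30b-5p were called lower, at -0.30 and -0.27, close to the -0.22 of miR-181a-5p, but neither was called with the percentile over all human miRNAs. In the authors' processed values neither was a call, at -0.26 and -0.24. miR-23b-3p was also not called with quantile normalization, at -0.26, and miR-30b-5p not under normexp, at -0.21. Both were above 0 without scaling and with the spike-ins, where miR-30b-5p was called higher, at 0.55. For miR-181b-5p the closest were miR-4497, at 0.072, miR-193b-3p, at 0.092, and miR-30d-5p, miR-183-5p and miR-4430, all at 0.11. The 2 tested miR-181 members differed from each other by 0.28, and of the 454 other miRNAs 166 were closer than this to miR-181a-5p and 99 to miR-181b-5p. The members that share a seed and neighbouring loci therefore did not have the most alike profiles.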

How the data were processed

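The authors deposited scanner output (Agilent Feature Extraction 10.7.3.1, per the labels) with the background-subtracted intensity of each spot, and, for the arrays together, a table on the log2 scale. Set against the scanner values its entries were uncentred and of the same direction, with a bright end shared by the arrays as after quantile normalization, and the normalization itself is not given in the sources used here. Their column medians lay between -3.32 and -3.13. Outlier spots, 1336 to 2219 of 50980 an array, were left out. Scaled values under 8.98, the median of the arrays' lowest detected signals, were raised to it before log2. Every miRNA with detection calls throughout one group was fitted with limma 3.58.1 in R 4.3.3, with no block, Benjamini-Hochberg adjusted over all 456, after the steps had been tested on simulated data. Exact permutation tests of 4 against 4 arrays reach 0.029 at the least. All arrays lay on 1 slide, and their number limits the precision. Named miRNAs are the members, other miR-181 strands, those sharing a seed, both lists, the closest profiles, extreme arm pairs and cell markers. Members and lists were chosen with earlier results of these data known. Alternatives were another signal column, background correction, probe summary, scaling, floor, filter, variance model, threshold, block, the authors' values, a paired t-test that the study names in general but not for these arrays, slide rows and leaving out arrays. Values within sides of the second principal component, single probes, and the side as a block for the ratio, were added after seeing the data. Normexp used the median spot intensity with an offset of 50.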

Additional observations from a re-analysis of the deposited data

How the results depend on the processing

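The count of 322 calls went to 198 (72 higher, 126 lower) with no filter on detection, 206 with every feature of the authors' values, 61 within slide row 1, where 1 UNC1999 array met 3 DMSO arrays, and 152 after Benjamini-Hochberg adjustment of a paired t-test, which the study names for its statistics in general while its array methods name a moderated one. It was within 1.5 times in the other 26 of 30 settings. Higher calls were 192 of 280 with the percentile over all human miRNAs, 54 of 284 with normexp, 234 of 238 without scaling and 298 of 305 with the spike-ins. Leaving out each array gave 292 to 326.

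miR-181a-5p was below 0 in 28 of 30 settings, a count that is no measure of stability, as several of them cannot move its fold change. It stayed at -0.22 with another floor, detection filter or variance model, the replicate or side as a block, and the paired t-tests. With the percentile over all human miRNAs it was at -0.00090. It was called at -0.31 with the scanner software's sum, where the fold changes of 274 of the 456 miRNAs, both members among them, moved by the same -0.087 to within 0.01 while 135 moved up, and at -0.39 within the side of the second principal component with the higher ratio (2 against 2 arrays, chosen after seeing the data). It was at 0.48 without scaling, with no call, and called higher at 0.60 with the spike-ins. Within slide rows 1 and 2, each with only 1 array in a group, it was at -0.38 and -0.0080. Leaving out each array gave -0.28 to -0.16, with no call.

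miR-181b-5p, near 0, was above 0 at 0.18 with the percentile over all human miRNAs, 0.66 without scaling, 0.78 with the spike-ins, 0.022 with the array row as a block, 0.17 within slide row 1 and 0.16 within the other side. Leaving out each array gave -0.15 to 0.083, above 0 without DMSO replicate 2 (0.0038), UNC1999 replicate 1 (0.026) or UNC1999 replicate 3 (0.083). The change in log2 ratio was above 0 at 0.020 with normexp and 0.12 within slide row 2, where 1 DMSO array met 3 UNC1999 arrays, was -0.55 within slide row 1, and lay between -0.29 and -0.087 with each array left out. For this ratio, exact tests within rows or sides, by sign flips or with the side as a block cannot reach 0.05. Where no cause is named, the cause was not tested.

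With the replicate number as a block, 308 miRNAs were called, the members had limma adjusted p of 0.17 and 0.82, and the ratio a sign-flip p of 0.50 (exact). Deviations of same-numbered arrays from their group means correlated at 0.18, 0.27, -0.42 and -0.39 for replicates 1 to 4. Arrays numbered 1 and 2 shared a side of the second principal component, and those numbered 3 and 4 did not. Whether the numbers pair the cultures was not settled by these values. Signal over background limits the dim members.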
